A study of Caenorhabditis elegans with 2 samples.

Results

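The genes of the signal recognition particle (SRP) RNA were followed through a ChIP-seq experiment on RPC-1, the biggest subunit of RNA polymerase III (Pol III). They were chosen by name, as the non-coding genes of the WBcel235 RefSeq annotation called srpr- and a digit. This gave 5 of 46890 annotated nuclear genes, namely srpr-1.1, srpr-1.2, srpr-2.1, srpr-2.2 and srpr-3. RefSeq calls each an unclassified non-coding RNA, so the name carries the identity. The experiment had 1 group of 2 biological replicates, both whole Caenorhabditis elegans young adults of strain YL517 in a mixed-sex population of a transgenic line with RPC-1 fused at its C terminus to GFP-FLAG. The labels do not say whether the replicates came from separate cultures, so differences between them may be technical. The labels give no age in hours. The signal comes from all tissues together, so more occupied cells and more polymerase per cell cannot be told apart. No condition was compared, and control libraries were not analysed here.

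The SRP is a ribonucleoprotein that binds the signal sequence of a nascent secretory or membrane protein and brings the ribosome to the endoplasmic reticulum. Its RNA is the scaffold on which the protein subunits assemble, and in animals it is transcribed by Pol III. The 5′ and 3′ ends of the RNA fold together into the Alu domain, which slows translation, and the middle forms the S domain, which holds the signal-binding SRP54 protein. Mammalian SRP RNA genes use promoter elements both before and inside the transcribed region.

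Of the 5 genes, 4 lay on chromosome III and srpr-3 lay on V. All coordinates are 1-based on ce11. On III, srpr-1.1 ran from 4378909 to 4379206 on the minus strand and srpr-1.2 from 4369468 to 4369766 on the plus strand. The pair faced each other across a gap of 9142 bp. Further along, srpr-2.2 occupied 5031410 to 5031708 on the minus strand and srpr-2.1 occupied 5211220 to 5211518 on the plus strand. The fifth gene, srpr-3, lay at 9293334 to 9293632 of V on the minus strand. Each was 298 or 299 bases long. An intron of the protein-coding gene ckb-2 held srpr-1.2 in the same orientation, and an intron of klp-6 held srpr-2.2 in the opposite one. The non-coding gene R144.16 overlapped the start of srpr-2.2, and F44A2.13 had nearly the same bounds as srpr-3, so a peak at either place cannot be given to 1 of the 2 genes. The nearest other Pol III gene was between 6824 bp (the tRNA gene B0285.t1, from srpr-1.2) and 83460 bp away (T15B12.t1, from srpr-2.1), apart from the pair of srpr-1 genes. No tRNA, U6, 5S rRNA, RNase P, RNase MRP or Y RNA gene was therefore within 1 kb of any SRP RNA gene. Only these classes and the SRP RNA genes were searched as Pol III genes, and tRNA pseudogenes were not.

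The gene sequences are shown because how far they differ decides how well reads from one copy can be told from another. They were read from the RefSeq genome (WBcel235, the assembly of ce11), 5′ to 3′ on the gene's own strand. Capitals mark the bases at positions where the 5 genes were not all identical.
srpr-1.1: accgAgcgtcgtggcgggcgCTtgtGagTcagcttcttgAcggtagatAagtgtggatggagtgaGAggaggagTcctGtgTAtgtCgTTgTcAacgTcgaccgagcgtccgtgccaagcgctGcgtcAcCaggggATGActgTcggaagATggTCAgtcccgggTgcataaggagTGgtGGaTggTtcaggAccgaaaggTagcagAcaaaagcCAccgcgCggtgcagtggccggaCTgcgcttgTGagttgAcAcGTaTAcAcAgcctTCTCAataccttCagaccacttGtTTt
srpr-1.2: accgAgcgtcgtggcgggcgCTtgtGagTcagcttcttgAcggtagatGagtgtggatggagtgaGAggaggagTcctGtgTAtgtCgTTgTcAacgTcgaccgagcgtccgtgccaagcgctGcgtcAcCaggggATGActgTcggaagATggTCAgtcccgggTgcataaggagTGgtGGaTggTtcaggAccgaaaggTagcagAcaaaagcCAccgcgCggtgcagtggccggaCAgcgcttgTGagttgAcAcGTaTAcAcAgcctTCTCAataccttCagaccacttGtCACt
srpr-2.1: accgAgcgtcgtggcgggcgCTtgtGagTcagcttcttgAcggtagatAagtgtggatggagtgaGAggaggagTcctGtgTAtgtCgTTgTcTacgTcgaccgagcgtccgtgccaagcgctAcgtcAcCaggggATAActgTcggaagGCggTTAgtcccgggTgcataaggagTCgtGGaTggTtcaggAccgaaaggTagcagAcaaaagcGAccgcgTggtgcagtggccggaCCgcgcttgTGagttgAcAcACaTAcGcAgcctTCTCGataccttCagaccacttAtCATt
srpr-2.2: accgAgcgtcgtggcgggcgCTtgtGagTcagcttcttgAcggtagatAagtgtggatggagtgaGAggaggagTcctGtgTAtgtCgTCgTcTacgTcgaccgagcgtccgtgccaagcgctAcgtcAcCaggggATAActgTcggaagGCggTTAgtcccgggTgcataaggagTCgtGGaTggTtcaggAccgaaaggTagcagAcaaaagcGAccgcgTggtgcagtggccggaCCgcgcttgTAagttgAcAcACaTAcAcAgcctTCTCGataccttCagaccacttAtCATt
srpr-3: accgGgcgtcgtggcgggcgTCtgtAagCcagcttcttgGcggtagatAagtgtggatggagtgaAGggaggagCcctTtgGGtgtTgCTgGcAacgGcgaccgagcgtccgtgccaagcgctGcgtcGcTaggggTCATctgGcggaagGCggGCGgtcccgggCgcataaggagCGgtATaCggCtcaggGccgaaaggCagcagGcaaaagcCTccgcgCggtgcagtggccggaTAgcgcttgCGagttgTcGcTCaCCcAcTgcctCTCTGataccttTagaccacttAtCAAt

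The genes on III were near copies of one another, and srpr-3 stood apart in sequence. Of 299 aligned positions, 232 were identical in all 5 genes and 278 in the 4 genes on III. At 46 positions srpr-3 alone differed. The closest pair was srpr-2.1 and srpr-2.2, which were 99.0% identical with 3 mismatches, followed by srpr-1.1 and srpr-1.2 at 98.3%. Genes of the different pairs on III shared 94.0% to 94.3%, and srpr-3 shared 81.7% to 82.3% with each of the others. The longest stretch without a difference was 25 bases, starting at position 99. The GC content was 62.9% in srpr-3 and 56.5% to 57.5% in the other genes.

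The bases directly before the gene start are shown because Pol III promoters often have elements there and because the copies differ more there than in the gene. Each line is the 60 bases before the start, and capitals mark the word GAAAAACC and any TATA that begins 35 to 20 bases before the start. Both motifs were picked after the sequences were seen.
srpr-1.1: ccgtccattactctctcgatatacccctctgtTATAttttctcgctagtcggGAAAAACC
srpr-1.2: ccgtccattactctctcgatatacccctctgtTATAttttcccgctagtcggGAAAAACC
srpr-2.1: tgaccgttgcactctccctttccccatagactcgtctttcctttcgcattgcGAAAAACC
srpr-2.2: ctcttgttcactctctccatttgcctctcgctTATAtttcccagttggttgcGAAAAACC
srpr-3: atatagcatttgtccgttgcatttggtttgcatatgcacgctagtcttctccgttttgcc

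The 100 bases before the start were 95.0% identical between srpr-1.1 and srpr-1.2, against 51.5% between srpr-2.1 and srpr-2.2, whose genes were the more alike. The 4 genes on III nevertheless ended their upstream sequence on the same 8-base word, GAAAAACC. Of 46874 gene starts examined, only 5 had this word directly before them, and pugs-10, a protein-coding gene, was the other. Anywhere in the 60 bases before the start, 96 genes had it on the sense strand (0.205%). A TATA beginning 28 bases before the start was present in srpr-1.1, srpr-1.2 and srpr-2.2, and 12.1% of all gene starts had a TATA in that interval. It was absent there from srpr-2.1 and srpr-3. These are matches of letters and were not tested as sites.

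Motifs of known Pol III promoters were also searched, on both strands. The B box of tRNA genes, searched as GTTCNANNC, was in none of the 5 genes and in none of their 250 upstream bases. Over all gene starts it was present in 12.5% of the first 299 bases and 7.62% of the upstream windows. The A box was found in the gene in 3 cases (srpr-2.1, srpr-2.2 and srpr-3) and in 30.8% of all genes over the same length. These matches lay far from the gene start, at position 222 on the sense strand in srpr-2.1 and srpr-2.2. In srpr-3 the match was on the antisense strand, at 279. A further antisense match in srpr-3, at −10, was not counted in its upstream window. None was tested as a site. The A box was found in the 250 bases upstream of srpr-1.2 and srpr-2.1, against 23.0% of all genes. The word TATAAA was in the upstream window of 3 members, against 34.1% of all genes, and in no member's gene body, against 31.1%. A run of TTTT, the usual Pol III termination signal, lay within 10 bases of the annotated end in all 5 genes, and in 34.3% of all genes.

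RPC-1 peaks were present at all 5 genes. The optimal list, which holds the 2123 peaks kept after the irreproducible discovery rate comparison of the replicates, had a summit within 1 kb of each of them. Across all annotated genes 7.29% had one. With a summit required within 100 bp of the gene, again all 5 had one, against 4.27% of all genes, and each had a summit inside the gene itself. The pooled list and the replicate lists were called loosely, with 24907, 26455 and 27629 peaks, and they too had a summit within 1 kb of all 5. There the share of all genes was 46.1% in the pooled list, 48.4% in that of replicate 1 and 53.1% in that of replicate 2, so presence in them says little. Each replicate list was therefore also cut to its 2123 highest peaks. All 5 genes had a summit among these within 100 bp in both replicates, against 4.22% of all genes in replicate 1 and 4.24% in replicate 2, and the share of all genes within 1 kb was 7.05% and 7.22%.

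The height of the peaks differed widely between the genes. Height is given as the signal value, a score from the authors' peak calling whose scale is not stated and which was compared only within a list, together with its rank in that list, where 1 is the highest. At srpr-2.1 the highest summit within 100 bp had a signal value of 1145 in the optimal list (rank 661 of 2123), 693 in the list of replicate 1 (rank 670) and 449 in that of replicate 2 (rank 680). It was the highest of the 5 genes in all of these lists. The value at srpr-1.2 was 980 in the optimal list (rank 698), 590 in replicate 1 (rank 698) and 384 in replicate 2 (rank 714). That gene came second throughout. At srpr-2.2 the optimal value was 731 (rank 773), with 425 in replicate 1 (rank 792) and 306 in replicate 2 (rank 780).

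The gene srpr-1.1 could be placed beside srpr-2.2 or well below it. Its highest summit within 100 bp had a value of 204 in the optimal list (rank 1347), but a higher summit of 738 (rank 770) lay 115 bp past the gene end, inside the convergent protein-coding gene pals-26. In the replicate lists that summit lay 78 bp and 99 bp past the end, so it counted as close, with 399 in replicate 1 (rank 819) and 291 in replicate 2 (rank 799). The order of srpr-2.2 and srpr-1.1 is therefore not settled by these lists, since 738 and 731 were nearly equal in the optimal list and srpr-2.2 was the higher in both replicates.

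The lowest gene was srpr-3, the copy on V. Its signal value was 96.6 in the optimal list (rank 1772), 56.3 in replicate 1 (rank 1855) and 41.8 in replicate 2 (rank 1827). It was last in every list, and the highest gene exceeded it 11.9-fold in the optimal list, 12.3-fold in replicate 1 and 10.7-fold in replicate 2. Its value was still above the median of the loosely called lists, which was 11.6 in the pooled list, 6.81 in replicate 1 and 6.53 in replicate 2. With 2 libraries of 1 group these differences between genes were not tested. The replicates gave the same order of all 5 genes.

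**Figure D1:**
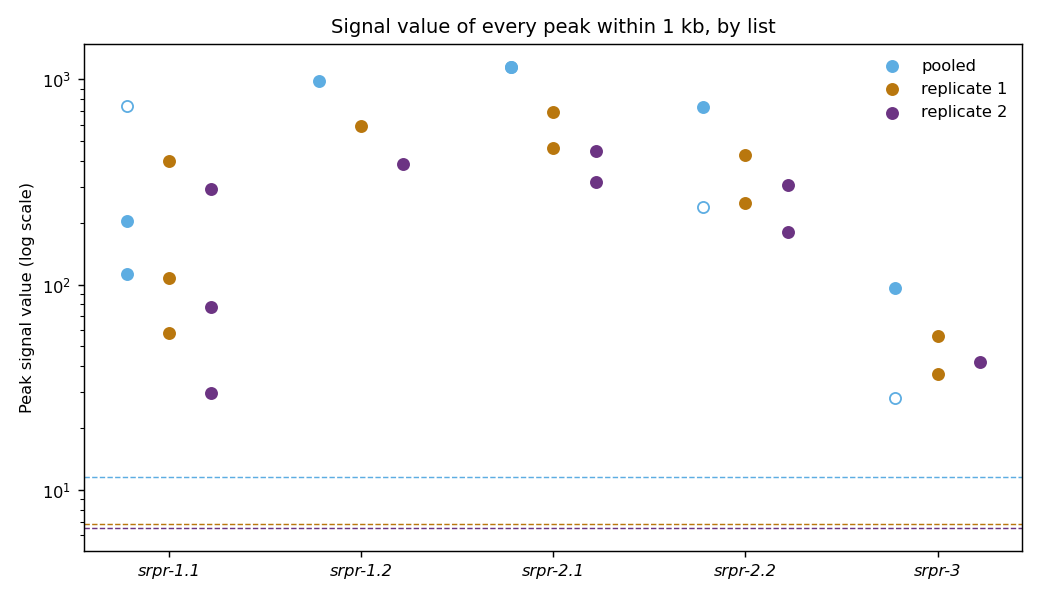
Signal value (log scale) of every peak with its summit within 1 kb of each SRP RNA gene, in the pooled list and in each replicate list. Filled points have their summit within 100 bp of the gene, open points do not, and dashed lines are the list medians of 11.6, 6.81 and 6.53. In each list the srpr-3 points lie below the highest point of every other gene, and all points lie above the median of their list.

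The optimal intervals on III were 341 to 948 bp wide, and most of the genes carried more than 1 summit. At srpr-1.2 the interval was 830 bp wide in replicate 1 and 372 bp wide in replicate 2. In the optimal list it was 875 bp wide with a single summit 109 bp downstream of the gene start. The interval at srpr-2.1 was 948 bp wide and held both of its summits, at 16 and 244 bp downstream, with nearly equal signal values of 1145 and 1142. At srpr-2.2 the main summit lay 141 bp downstream (825 bp wide) and a second one of 239 lay 103 bp upstream of the start. That upstream summit fell inside R144.16. The summits were spread furthest at srpr-1.1. There they lay 19 bp upstream (value 113), 180 bp downstream (204) and 412 bp downstream (738), so the signal value was highest past the 3′ end. The optimal peak at srpr-3 was 161 bp wide, with 1 summit 97 bp downstream, whereas its peaks were 576 bp wide in replicate 1 and 530 bp wide in replicate 2.

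Summit positions were close between the replicates at some genes and apart at others. The main summit of srpr-2.2 was at 145 bp in replicate 1 and 143 bp in replicate 2, and that of srpr-1.2 was at 102 and 131 bp. At srpr-2.1 the highest summit of each replicate lay further inside the gene than in the optimal list, at 149 and 122 bp, with a second one 52 and 30 bp past the end. At srpr-3 the highest summit lay at 181 bp in replicate 1 and 54 bp in replicate 2, on either side of the pooled position. All 9 optimal summits together fell 6 times in a gene, 2 times before it and 1 time after it.

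**Figure D2:**
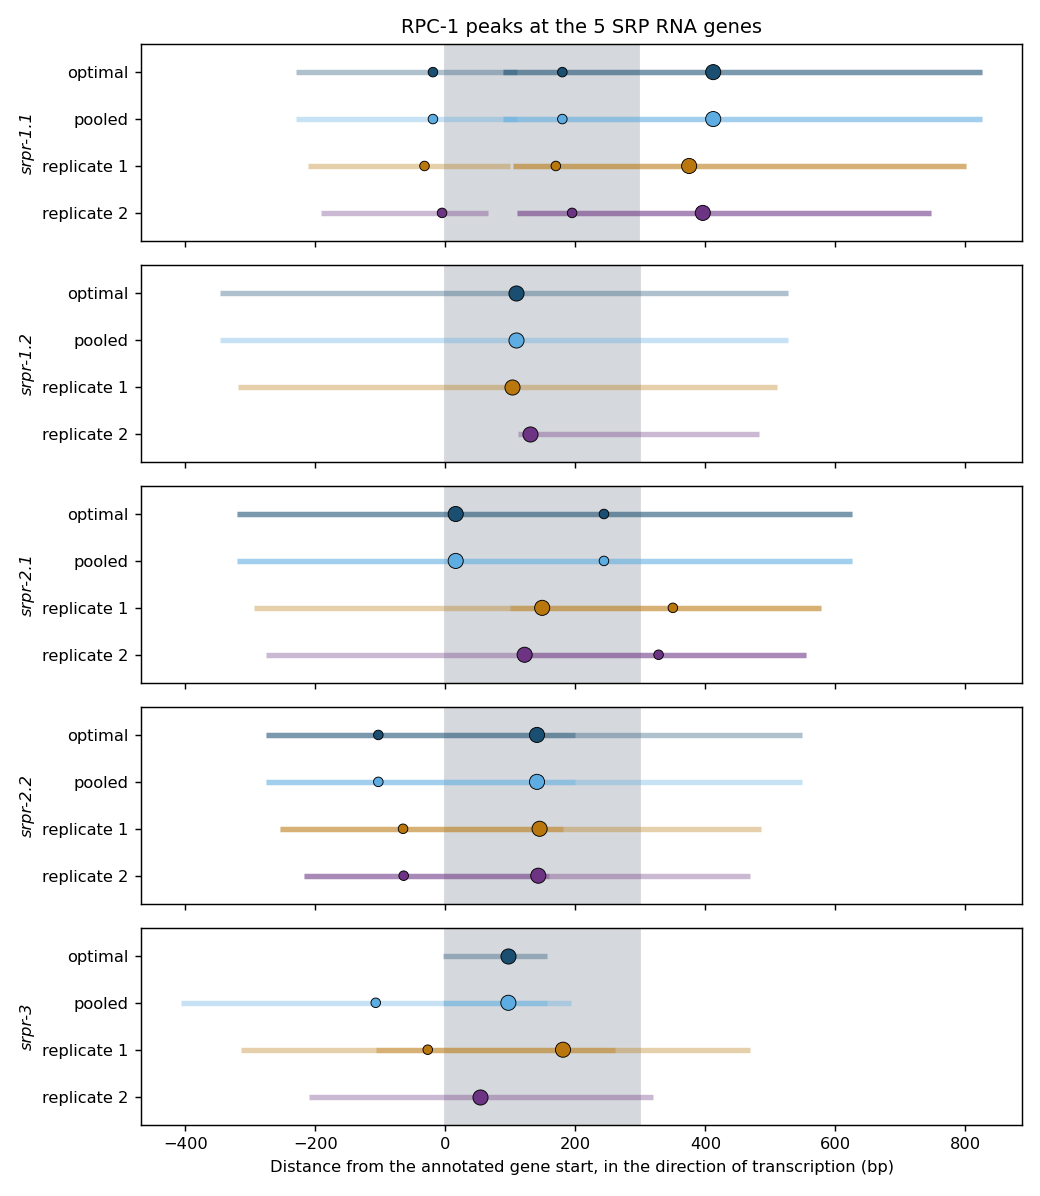
Peak intervals (bars) and summits (points) at the 5 SRP RNA genes, by distance from the annotated gene start in bp, with the gene body shaded and 1 row per list. The larger point is the highest summit of that list. The highest summit lies inside the gene body in every list at srpr-1.2, srpr-2.1, srpr-2.2 and srpr-3, and past the gene end in every list at srpr-1.1.

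Counts of genes with several summits are set beside those of other Pol III genes. In the optimal list 2 of the 5 SRP RNA genes had at least 2 summits within 100 bp, as did 3 of 558 tRNA genes with a summit (0.538%), 2 of 16 U6 genes (12.5%) and none of rpr-1, mrpr-1 and yrn-1. In replicate 1 the count was 4 of 5 and in replicate 2 it was 3 of 5, against 0.707% and 0.883% of the tRNA genes. In replicate 1, rpr-1 also had 2. The SRP RNA genes are also longer, at 298 to 299 bases against a median of 72 for tRNA genes and 102 for U6 genes, and a longer window can hold more summits. The part of length in this count was not tested. For comparison, 362 tRNA genes stood alone (the next tRNA gene over 1 kb away), and their highest summit had a median position of +13 bp from the start (quartiles 11 and 16). Among the SRP RNA genes only srpr-2.1 had its highest optimal summit near that position, at 16 bp, and its summit at 244 bp was nearly as high. In the replicate lists the highest summit of srpr-2.1 lay at 149 and 122 bp. The optimal summits of rpr-1 (253 bases long), mrpr-1 (186 bases) and yrn-1 (105 bases) lay at 17, 94 and 16 bp.

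Some of the summits on III lay in sequence shared between the copies and some did not. Of the 36-base words in srpr-1.1, 14.8% were unique in the genome, and the share was 28.8% in srpr-1.2, 31.4% in srpr-2.1 and 33.0% in srpr-2.2. In srpr-3 every one was unique. The 300 bases after the gene end were unique throughout at all 5 genes, and those before the start were 86.8% unique at srpr-1.1, 88.7% at srpr-1.2 and wholly unique at the other genes. With 100-base words, chosen as a comparison after the data were seen, the shares in the gene rose to 54.3% at srpr-1.1, 54.5% at srpr-1.2 and 70.5% at both srpr-2 genes. None of the words in the 100 bases around the main optimal summit of srpr-1.2 and srpr-2.2, or around the inner summit of srpr-1.1, was unique. Around the highest summit of srpr-1.1, past the gene end, all were, as they were around the upstream summit of srpr-2.2. The share was 55.4% around the upstream summit of srpr-1.1. At srpr-2.1 it was 33.8% around the summit at 16 bp and 70.8% around that at 244 bp. The labels and file descriptions used here state neither the read length nor the treatment of reads that map to several places, and the part of shared sequence in these heights and positions was not tested.

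**Figure D3:**
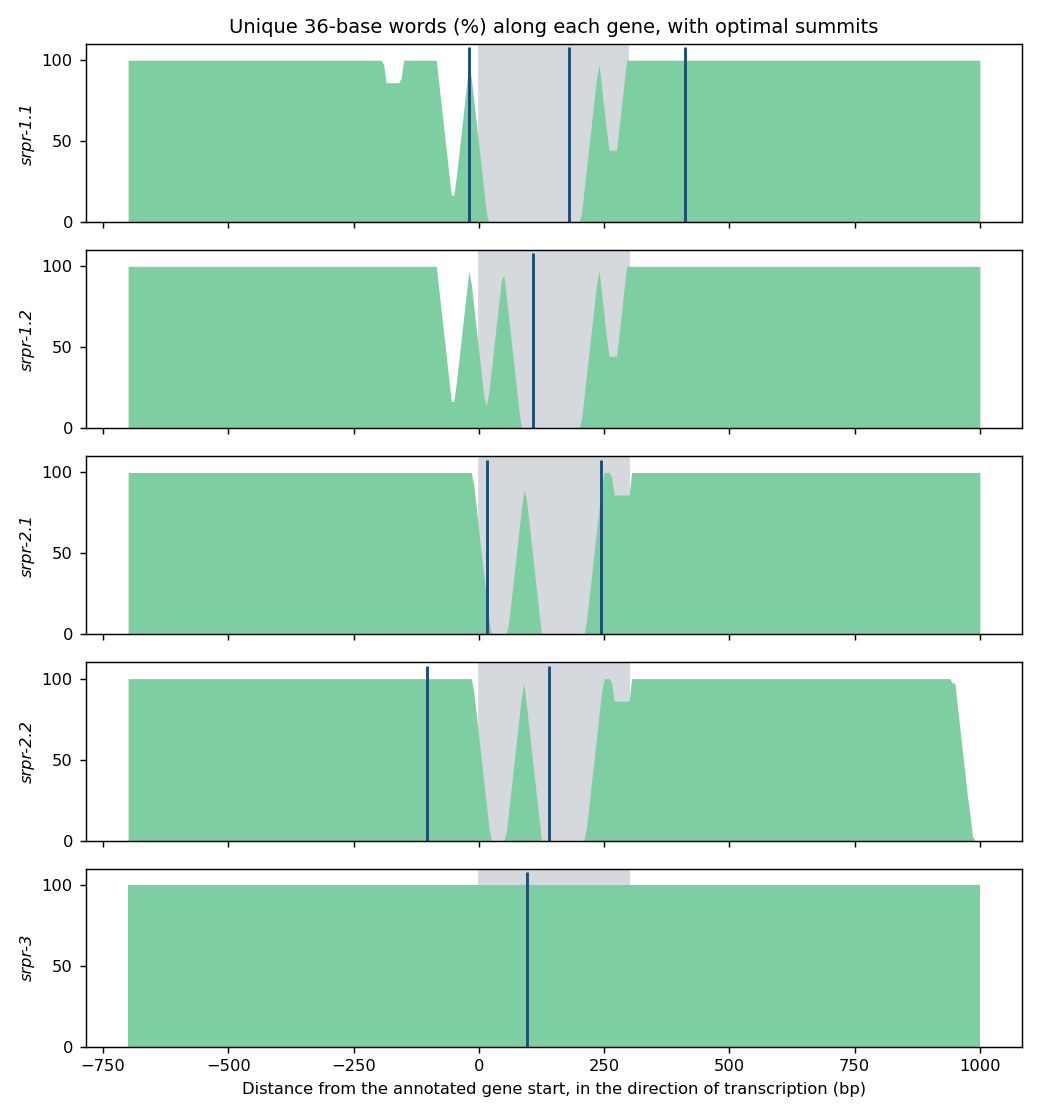
Share (%) of the 36-base words covering each base that occur once in the genome, by distance from the annotated gene start in bp, with the gene body shaded grey and optimal summits as vertical lines. The share falls to 0 within the 4 genes on III, where the summits at 109 bp (srpr-1.2), 141 bp (srpr-2.2) and 180 bp (srpr-1.1) lie, and stays at 100 along srpr-3.

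Signal values at the SRP RNA genes lay below those of most tRNA genes and of the single-copy Pol III RNA genes, and overlapped those of the U6 and 5S rRNA genes. Their highest value within 100 bp had a median of 731 in the optimal list and a range of 96.6 to 1145. The RNA of RNase P (rpr-1, which trims the 5′ ends of tRNAs) had 3487, the RNA of RNase MRP (mrpr-1, which acts in rRNA processing) had 3121, and the Y RNA gene yrn-1 had 2971, so all 3 lay above every SRP RNA gene. In the replicate lists the lowest of these 3 was yrn-1, at 1689 in replicate 1 (rank 398) and 1281 in replicate 2 (rank 323), also above every SRP RNA gene. Of 558 tRNA genes with a summit (of 612 in all), 500 (89.6%) had a value above that of srpr-2.1 and 5 had one below that of srpr-3, around a median of 3073. The 16 U6 genes with a summit, of 22 typed by the word ACAGAGA, overlapped the SRP RNA genes, with a median of 1149 and a range of 161 to 6175. Of 16 5S rRNA genes, 3 had a summit, with a median of 237 and a range of 191 to 2771. The median of 88 tRNA pseudogenes with a summit was 257, between srpr-1.1 and srpr-2.2. These are counts over genes measured in the same libraries, and no test was made.

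**Figure D4:**
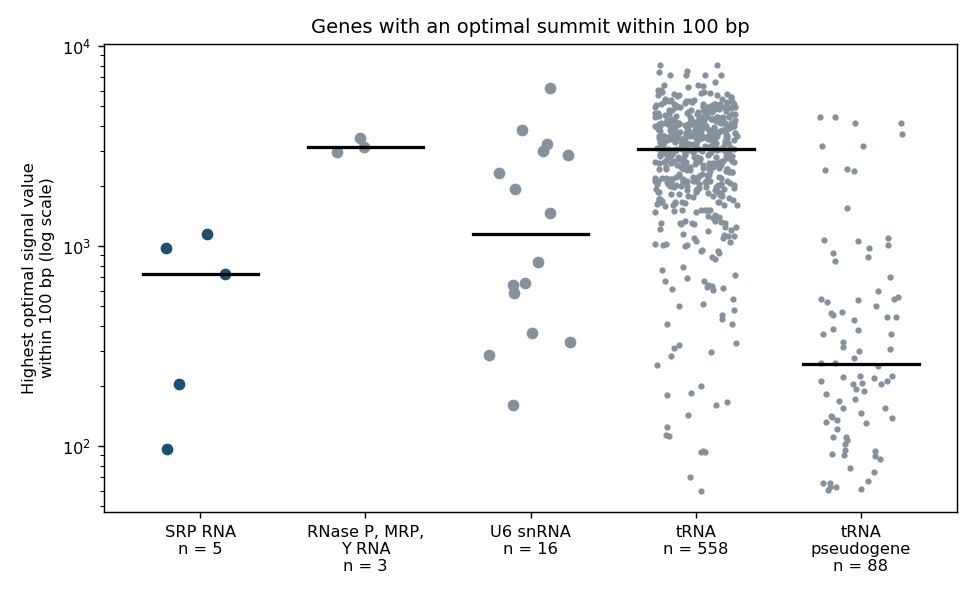
Highest signal value (log scale) of the optimal peaks with a summit within 100 bp, for each gene that had one, with the median as a bar. The 5 SRP RNA genes range from 96.6 to 1145, below rpr-1, mrpr-1 and yrn-1 and below 500 of the 558 tRNA genes, and they overlap the U6 genes and the tRNA pseudogenes.

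The protein side of the pathway, which Pol II transcribes, had an optimal peak at 1 gene. The list held 17 protein-coding genes, made up of those annotated as SRP proteins and their docking protein, the SEC61 channel subunits that pass the protein through the membrane, the TRAP proteins that sit beside the channel, and the signal peptidase subunits spcs-1 and spcs-2. It took in mig-2 through 1 of its RefSeq product names, although another calls it a Rac-type GTPase. An optimal peak came within 500 bp of a transcript start at 1 of the 17, against 2.74% of all protein-coding genes. This was spcs-2, with a signal value of 63.8 (rank 2053 of 2123). Its peak ranked 2592 in replicate 1, outside the 2123 highest peaks, and 1931 in replicate 2, inside them. In the loosely called pooled list 14 of the 17 had a peak there, and 39.4% of all protein-coding genes did. The genes sec-61.B and trap-3 had the same pooled peak, so the count is of genes and not of separate peaks. Pooled signal values were 24.95 at srpa-72, which encodes an SRP subunit, and 23.0 at F21D5.7, the SRP54 gene, both below the 96.6 of srpr-3.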

How the data were processed

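ChIP-seq peak lists from 2 biological replicates of 1 group were used. Per the deposited file descriptions, the authors made each replicate list from that replicate's alignments and a control, the pooled list from both replicates' alignments, and the optimal list from these 3 by irreproducible discovery rate. Not given in the sources used here were aligner, peak caller, versions and threshold. One free-text label writes PRC-1, and all others RPC-1. The deposited signal value is a score of the peak caller. The deposited −log10 q column was 3.78 at all optimal peaks, its highest value, and was not used for ranking. No read counts or depths were used, so the depth behind each value is unknown. Lists on ce10 were not used.

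Summits were the interval start plus the offset column. Genes came from RefSeq WBcel235, whose chromosomes no peak overran. A gene's value was the highest signal value with a summit within 100 bp of it. Words of 36 bases were counted on both strands of the genome. Genes were aligned with MAFFT 7.526 and Biopython 1.88, and searched with blastn 2.17.0. Summit assignment was tested on simulated data. All 5 genes are named, with their neighbours, the single-copy Pol III RNA genes and protein genes of the list with a peak, of which not all are reported here. Members and lists were chosen with earlier results of these data known. Alternatives were the window, the overlap rule, the 1061 highest optimal peaks, the nearest summit and each replicate alone.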

Additional observations from a re-analysis of the deposited data

How the results depend on the processing

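All 5 genes kept an optimal summit within 500 bp, in the gene body, within 200 bp and by interval overlap, and with either replicate left out, the 2123 highest peaks of the other gave 5 of 5 both at 1 kb and at 100 bp. Among the 1061 highest optimal peaks, 4 genes had a summit within 1 kb and 3 had one within 100 bp, srpr-1.1 having only the summit past its end. These peaks are part of the optimal list, so they reach at most 7.29% of all genes at 1 kb and 4.27% at 100 bp. The exact shares were not computed, nor were those for the 500 bp, gene-body, 200 bp and overlap settings. Ranks and offsets moved furthest at srpr-1.1 and srpr-2.2, which had several summits. For srpr-1.1 the pooled rank of 1347 became 770 with any overlapping interval and 1685 with the nearest summit, and 799 to 819 with 1 replicate left out. Its offset of 180 bp became −19 bp for the nearest summit and 375 to 396 bp with 1 replicate left out. For srpr-2.2 the nearest summit gave a rank of 1252 at −103 bp in place of 773 at 141 bp, and leaving out a replicate gave 780 to 792 at 143 to 145 bp. With 1 replicate left out, srpr-1.2 ranked 698 to 714 at 102 to 131 bp, srpr-2.1 ranked 670 to 680 at 122 to 149 bp in place of 16 bp, and srpr-3 ranked 1827 to 1855 at 54 to 181 bp. For srpr-1.1 the list decides whether the summit past its end counts as close. The cause of the other moves was not tested. No spread beyond 2 replicates could be given, and the depth is unknown.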

Other observations

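Pieces of SRP RNA sequence outside the 5 annotated SRP RNA genes also lay beside RPC-1 peaks. A blastn search of the genome with the 5 genes (E-value up to 0.001) found 7 matches elsewhere, of 30 to 55 aligned bases, all on X and all to the 5′ end of the gene. The best match of each was srpr-3, with 89.1% to 93.6% identity. Every one of the 7 lay within 1 kb of an optimal summit, and 5 lay within 100 bp. The matches starting at 16697320 and 16698130 had the same nearest optimal summit. For scale, 4.89% of the bases of X were within 1 kb of an optimal summit and 0.645% within 100 bp. The search and this reading were made after the data were seen, and no test was made.

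The sequences of 4 of these matches are shown because they match the 5′ end of the SRP RNA, which belongs to the Alu domain. The first begins at base 4 of srpr-3 and the others at base 1. Capitals mark bases that differ from srpr-3, and the matches starting at 12013772 and 16371114 also each lack 1 base of srpr-3, which is not marked.
chrX:1107081-1107110, plus strand: gggcgtcgtggcgggcgtctgtaaCcTagc
chrX:12013772-12013825, minus strand: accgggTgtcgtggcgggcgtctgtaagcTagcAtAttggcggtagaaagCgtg
chrX:16371114-16371167, plus strand: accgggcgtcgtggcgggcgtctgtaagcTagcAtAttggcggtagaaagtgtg
chrX:16698130-16698176, plus strand: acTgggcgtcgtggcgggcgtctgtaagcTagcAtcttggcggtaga

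An optimal summit fell inside 3 of the matches. The one at 12013772 to 12013825 had a signal value of 608 (rank 849), with 340.03 in replicate 1 and 264 in replicate 2, which was above srpr-3 in each list. The match at 1107081 to 1107110 overlapped the non-coding gene C05D9.12, with an optimal value of 355. That at 16371114 to 16371167 overlapped ace-1 and the non-coding gene F01G12.19, with 327. The other 4 came as 2 pairs in opposite orientation. One pair started at 16697320 and 16698130, the second overlapping the non-coding gene F22H10.10. The same optimal summit, of 221, was nearest to both, 866 bp from the first and 56 bp from the second. The first had a pooled summit of 46.6 (rank 2424) 34 bp away. The other pair started at 16849117 and 16850220 inside the pseudogene T20F7.5, with optimal summits of 101 and 155 at 50 bp and 105 bp. The nearest annotated Pol III gene to any of the 7 was 6946 bp away. The matches starting at 16698130, 16849117 and 16850220 had the same 47 bases. That starting at 16697320 was identical to the first 47 bases of the match at 16371114. A short read lying wholly in such shared bases cannot be given to 1 place. Repeated sequence around the matches was not measured, and its part in these peaks was not tested.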
